A study of Mus musculus with 12 samples.

Results

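Perineuronal net and lectican genes are described here in whole spinal cord of mice with and without a mutation in Gars, the gene of glycyl-tRNA synthetase. The set was chosen by gene symbol and holds 10 of the 38924 genes in the deposited tables: the lecticans Acan, Bcan, Ncan and Vcan, the link proteins Hapln1, Hapln2, Hapln3 and Hapln4, the tenascin Tnr and the hyaluronan synthase Has3. Each symbol matched 1 gene, and all 10 passed the filter on low counts that left 17980 genes for testing. RNA was sequenced from 12 mice aged 8 weeks, with 6 wild type (WT) mice and 6 mice heterozygous for the P278KY allele of Gars (GarsP278KY/+, here P278KY). WT females are mice 1, 2 and 10, P278KY females are mice 3, 4 and 9, WT males are mice 5, 11 and 12, and P278KY males are mice 6, 7 and 8. All groups shared the strain background given as B6J;CAST, and no treatment is given for any of them. Each library is 1 mouse, and the tables do not separate the mutant allele from the WT allele in heterozygotes.

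Perineuronal nets are lattices of extracellular matrix around the cell body and proximal dendrites of some neurons, and in the spinal cord motor neurons carry well-developed nets. Hyaluronan chains made at the cell surface form the backbone, lecticans (chondroitin sulphate proteoglycans with a hyaluronan-binding end) attach to it, link proteins lock that attachment, and tenascin-R crosslinks lecticans at their other end. The same families also build the matrix of nodes of Ranvier and the diffuse matrix between cells, so their RNA in whole cord is not that of nets alone. In bulk tissue, fewer cells of a type and less RNA per cell cannot be told apart.

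Acan and Ncan are the members that passed the test between genotypes, so the RefSeq promoter sequence of each is shown before their values (build GRCm38.p6). The table gives a window around the RefSeq start for 8 of the 10 members, and Hapln4 and Has3 were not matched. Both strands were searched for 3 short promoter motifs, the TATA box, the CCAAT box and the GC box. The bases are in lower case, with motif matches in capitals. A motif on the opposite strand appears as its reverse complement.
Acan, chr7:79052976-79053225, plus strand: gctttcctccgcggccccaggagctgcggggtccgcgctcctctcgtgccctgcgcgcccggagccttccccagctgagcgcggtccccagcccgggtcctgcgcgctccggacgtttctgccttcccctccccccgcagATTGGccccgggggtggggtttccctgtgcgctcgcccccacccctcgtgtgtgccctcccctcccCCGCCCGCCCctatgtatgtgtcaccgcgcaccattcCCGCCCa
Ncan, chr8:70120874-70121094, minus strand: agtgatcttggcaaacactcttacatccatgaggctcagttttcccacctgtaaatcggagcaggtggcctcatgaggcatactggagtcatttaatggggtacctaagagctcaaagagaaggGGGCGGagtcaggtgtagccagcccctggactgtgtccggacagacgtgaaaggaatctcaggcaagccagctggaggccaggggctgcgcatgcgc
The Acan window of 250 bases before the RefSeq start had 74.4% G and C and 26 CpG dinucleotides, above the G and C content of 95.4% of the 32851 mouse promoters in the table. It held 1 CCAAT box and 3 GC boxes, all on the opposite strand, and 2 of the GC boxes overlap. The run shown for Ncan is the 221 bases of its window that lie before the gene's start in GENCODE M21. The whole Ncan window of 250 bases had 54.4% G and C, close to the median of 52.4%, with 6 CpG dinucleotides and 1 GC box on the gene's own strand. Over windows of the same length in all 32851 promoters, 12.4% held the TATA box, searched as TATAAA. The CCAAT box was searched by the letters of its name and was held by 33.8% of them. The GC box, searched as GGGCGG, was held by 32.7%. A match describes the letters of these windows and no binding was measured.

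The libraries held 26982140 to 39339999 expected counts. Markers fitted the labelled tissue: Mbp, of oligodendrocyte myelin, was at 11550 to 18510 counts per 1000000 (CPM), and Slc6a5, the glycine transporter of spinal inhibitory neurons, at 449.2 to 532.9 CPM. Summed skeletal muscle markers reached 8095 CPM over WT mice and 2984 CPM over mutants, with the high values in mice 1 to 4, and ganglion neuron markers were high in mice 7, 10 and 11. A term for mice 9 to 12, which hold 1 mutant and were taken as a set from earlier results of these data, was also tried. Members that rest on these libraries are given with and without them.

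Of the 10 members, Acan and Ncan fell in P278KY cord and none rose. Acan, the gene of aggrecan, was 1.34-fold lower, and Ncan, the gene of neurocan, was 1.26-fold lower. A call means an adjusted p (edgeR's quasi-likelihood test, Benjamini-Hochberg over all tested genes) under 0.05. Over all 17980 genes, 5.32% were called and 2.95% were called lower in P278KY. At an unadjusted p under 0.05 for genotype there were 3637 of these genes and 4 members. Counts of unadjusted p in the gene lists below stand beside that background. The log2 change was negative for 7 of 10 members with a median of -0.11, against 51.1% negative and a median of -0.00309 over all tested genes. The genotypes did not overlap for 1 member, Acan, against 3.73% of all genes.

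**Figure D1:**
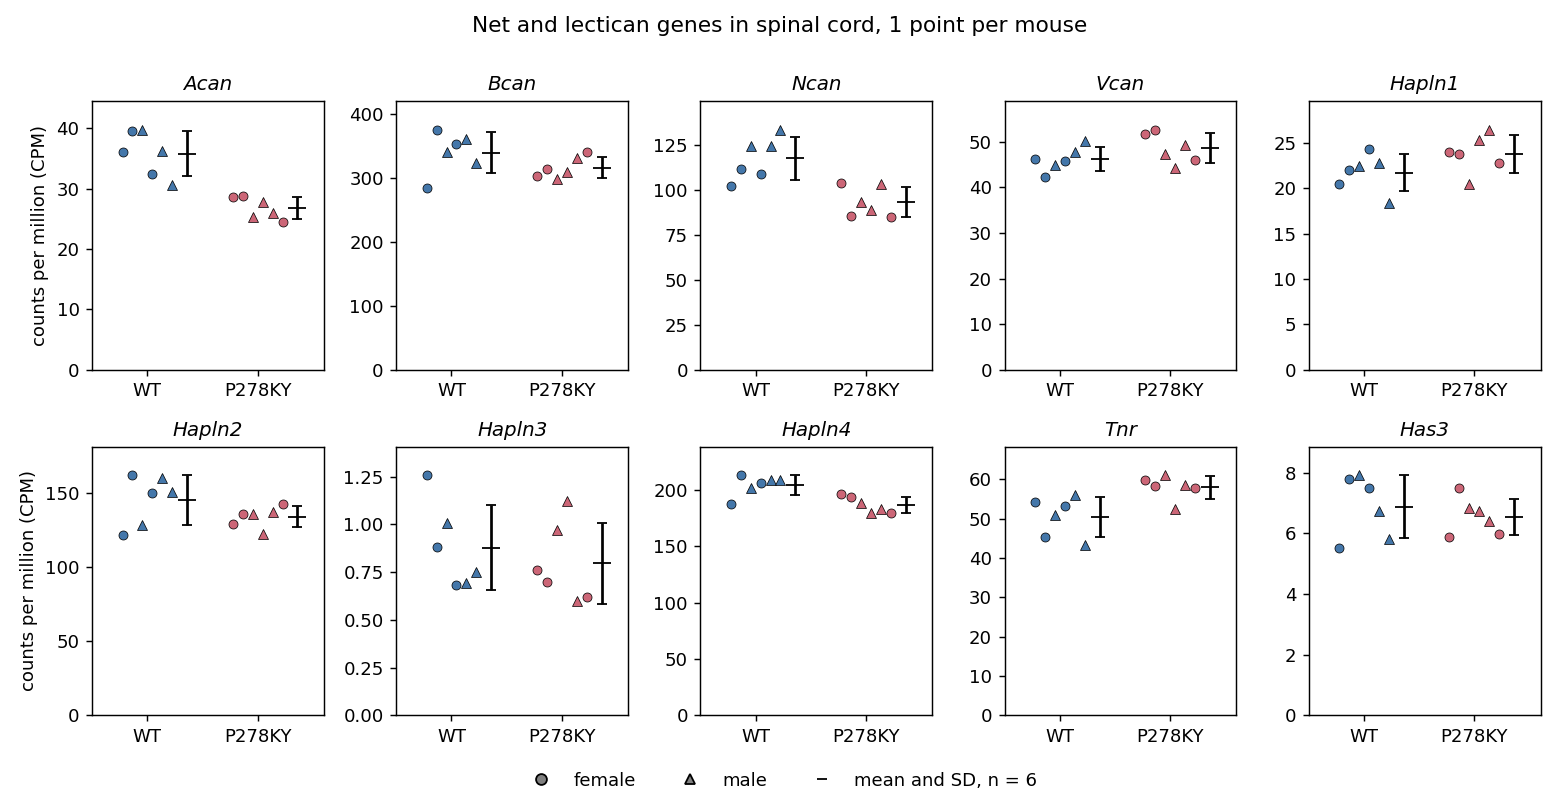
CPM (vertical axes, each starting at 0) of the 10 genes in WT and P278KY cord, with 1 point per mouse, circles for females, triangles for males, and bars for the mean and SD over 6 mice. All 6 P278KY mice lie below all 6 WT mice for Acan, while Hapln2, Hapln3 and Has3 overlap widely.

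Acan encodes aggrecan, the lectican most closely tied to neuronal nets. The gene (ENSMUSG00000030607) spans 79053483 to 79115099 on the plus strand of chromosome 7 in GENCODE M21 (GRCm38). In WT mice its level ran from 30.62 through a median of 36.14 to 39.74 CPM. In P278KY mice it ran from 24.48 through 26.85 to 28.73 CPM. Every mutant lay below every WT mouse, with P278KY female 9 the lowest and WT male 12 the lowest of its genotype. The means were 35.79 ± 3.69 CPM in WT and 26.81 ± 1.77 CPM in P278KY (SD, n = 6 each), from 712 to 1169 expected counts per mouse. The log2 difference of P278KY from WT was -0.42 (SE 0.068, adjusted p = 0.00388). Acan was called lower in all 12 fits that left out 1 mouse, with an adjusted p of 0.00237 to 0.0141. With a term for mice 9 to 12 the difference was -0.48, and with mice 1 to 8 alone, a choice made after the data were seen, it was also -0.48 (adjusted p = 0.0171).

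Ncan encodes neurocan, a brain lectican that is cleaved during maturation and is made by neurons and astrocytes. The gene (ENSMUSG00000002341) lies on the minus strand of chromosome 8, from 70093085 to 70120873. WT mice had 102.1 CPM at the lowest, 117.8 at the median and 133.3 at the highest. P278KY mice had 84.94, 91.08 and 103.9 CPM. The genotypes overlapped, since P278KY female 3 (103.9 CPM) and P278KY male 8 (103.2 CPM) lay above WT female 1 (102.1 CPM), and the other 4 mutants lay below all WT mice. The means were 117.4 ± 11.8 CPM in WT and 93.24 ± 8.52 CPM in P278KY (SD, n = 6 each), a log2 difference of -0.33 (SE 0.060, adjusted p = 0.00734). Ncan was called in all 12 fits that left out 1 mouse (adjusted p 0.00056 to 0.0254). It was also called without mice 1 to 4 (-0.41, adjusted p = 0.00423) and with a term for mice 9 to 12 (-0.32, adjusted p = 0.023). The call was lost without mice 7, 10 and 11, the libraries with ganglion RNA (-0.30, adjusted p = 0.0839), and with mice 1 to 8 alone (-0.27, adjusted p = 0.263). Over all genes those settings called 253 and 84 genes, against 956 with all 12 mice.

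Bcan encodes brevican, a small lectican of nets and nodes of Ranvier. Its mean level was 338.9 ± 32.4 CPM over WT mice and 315.3 ± 16.2 CPM over mutants (SD, n = 6 each), and the groups overlapped. Its log2 difference of -0.10 (SE 0.061) was not called (adjusted p = 0.381). WT female 1 had the lowest level of all, 283.3 CPM, and without it Bcan was called lower (-0.16, adjusted p = 0.0371). Vcan encodes versican, a lectican of the diffuse matrix and of nodes that is also made by oligodendrocyte precursors. Its mean level was 46.16 ± 2.66 CPM over WT mice and 48.50 ± 3.29 CPM over mutants, and its log2 difference of 0.07 (SE 0.052, adjusted p = 0.498) was not called. Without mice 1 to 4 its sign turned (-0.01).

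**Figure D2:**
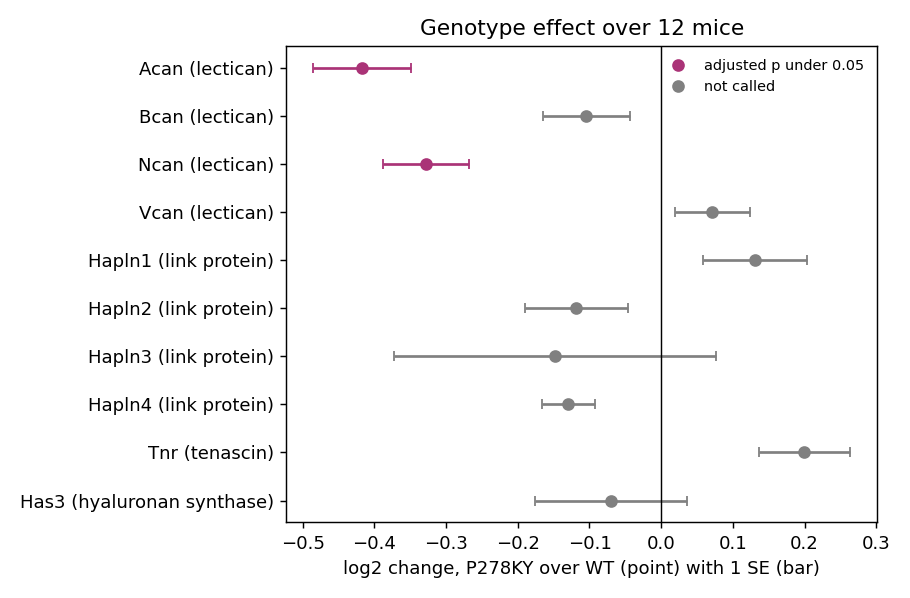
Log2 change of P278KY over WT (points) with 1 SE (bars) for the 10 genes in order of role, from the fit over 12 mice. Acan (-0.42) and Ncan (-0.33) passed an adjusted p of 0.05, and Hapln4 and Tnr lie off 0 in opposite directions without passing it.

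None of the 4 link proteins was called by edgeR, and 1 of them, Hapln4, had an unadjusted p under 0.05. Hapln4 encodes the brain link protein that accompanies brevican at perisomatic nets. In WT mice its level ran from 187.6 through 207.8 to 213.1 CPM. In P278KY mice it ran from 179.4 through 186.2 to 196.2 CPM. The groups overlapped through WT female 1, at 187.6 CPM, and 3 mutants lay below all WT mice. The means were 204.6 ± 9.11 CPM and 187.0 ± 7.25 CPM (SD, n = 6 each), a log2 difference of -0.13 (SE 0.037, adjusted p = 0.0593). The result lay close to the threshold: Hapln4 was called by DESeq2 (adjusted p = 0.0133), by limma voom (0.0137) and with a filter of at least 1 CPM in 6 libraries (0.0431). It was also called without WT female 1 (adjusted p = 0.00634), without P278KY female 3 (0.0497) or without mice 1 to 4 (0.0156). Hapln4 was not called by limma on log2(TPM + 1) values, where the difference was smaller (-0.05, adjusted p = 0.442). The median log2 change over all tested genes was 0.06 on those values, against -0.00309 on counts. Nor was Hapln4 called without mice 7, 10 and 11 (-0.11, adjusted p = 0.312), with a term for mice 9 to 12 (-0.13, adjusted p = 0.115) or with mice 1 to 8 alone (-0.08, adjusted p = 0.604).

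Hapln1, the link protein of cartilage and of many nets, averaged 21.71 ± 2.05 CPM over WT mice and 23.79 ± 2.06 CPM over mutants (log2 difference 0.13, SE 0.073, adjusted p = 0.349). Hapln2, which joins versican at nodes of Ranvier, was at 145.1 ± 16.8 and 133.7 ± 7.07 CPM (-0.12, SE 0.072, adjusted p = 0.40). Both overlapped between genotypes, with 2 mutants above all WT mice for Hapln1 and none outside the WT range for Hapln2. Hapln3, a link protein better known outside the nervous system, had only 18 to 39 expected counts per mouse, or 0.5969 to 1.257 CPM. It was counted on 1 transcript of 1433 bases, which GENCODE M21 gives as 1191 bases and does not type as protein-coding. The difference of -0.15 for Hapln3 had the largest SE of the set (0.225, adjusted p = 0.773). Its sign turned without WT female 1 (0.0013) and without mice 1 to 4 (0.07).

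Tnr encodes tenascin-R, the crosslinker of lecticans, made mainly by oligodendrocytes and some neurons. WT mice had 43.31 CPM at the lowest, 52.08 at the median and 56.0 at the highest. P278KY mice had 52.46, 58.41 and 60.98 CPM. In the opposite direction to Acan, 5 of the 6 mutants lay above all WT mice, and P278KY male 7 (52.46 CPM) was the one inside the WT range. The means were 50.49 ± 5.11 CPM in WT and 57.99 ± 2.94 CPM in P278KY (SD, n = 6 each), and the log2 difference of 0.20 (SE 0.064) was not called (adjusted p = 0.0916). Tnr was called by DESeq2 (adjusted p = 0.0365) and by limma on log2(TPM + 1) values (0.27, adjusted p = 0.0241). On those TPM values the median change over all tested genes was also positive, at 0.06. Tnr was called in none of the 12 fits that left out 1 mouse.

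Has3 encodes one of the 3 enzymes that extrude hyaluronan from the cell surface. It averaged 6.875 ± 1.03 CPM over WT mice and 6.547 ± 0.595 CPM over mutants (SD, n = 6 each), with a log2 difference of -0.07 (SE 0.106, adjusted p = 0.771). The groups overlapped fully.

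Per transcript length, the 10 genes covered more than 2 orders of magnitude. Mean TPM (a share of all transcripts, scaled by their length) over the 12 mice ran, from high to low, in the order Bcan (199.6), Hapln2 (163.6), Hapln4 (108.7), Ncan (28.38), Tnr (24.20), Vcan (12.22), Hapln1 (8.845), Acan (8.248), Has3 (2.561) and Hapln3 (1.238). Of the neighbours in this order, Bcan and Hapln2, Ncan and Tnr, and Hapln1 and Acan had ranges that overlapped over mice. Within single mice, Bcan was above Hapln2 in 12 of 12, Ncan above Tnr in 9 and Hapln1 above Acan in 7. Bcan made up 79.6 ± 1.68% of the summed lectican TPM in WT and 81.0 ± 1.49% in P278KY mice (SD, n = 6). Acan made up 3.66 ± 0.436% and 2.99 ± 0.257%, and Ncan 12.3 ± 1.23% and 10.6 ± 1.04%. Vcan had 4.53 ± 0.517% and 5.35 ± 0.890%. The members that fell were minor parts of the lectican RNA of whole cord on this scale, and the summed lectican TPM was 253.1 ± 22.4 in WT and 243.7 ± 9.51 in P278KY mice. Changes read differently in TPM and in counts: the median log2 change over all tested genes was 0.06 on log2(TPM + 1) values and -0.00309 on counts. The log2 changes on those TPM values were -0.30 for Acan, -0.02 for Bcan and -0.25 for Ncan. On counts they were -0.42, -0.10 and -0.33, so the summed TPM understates the falls seen in CPM. No test was run on these shares, which depend on one another.

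**Figure D3:**
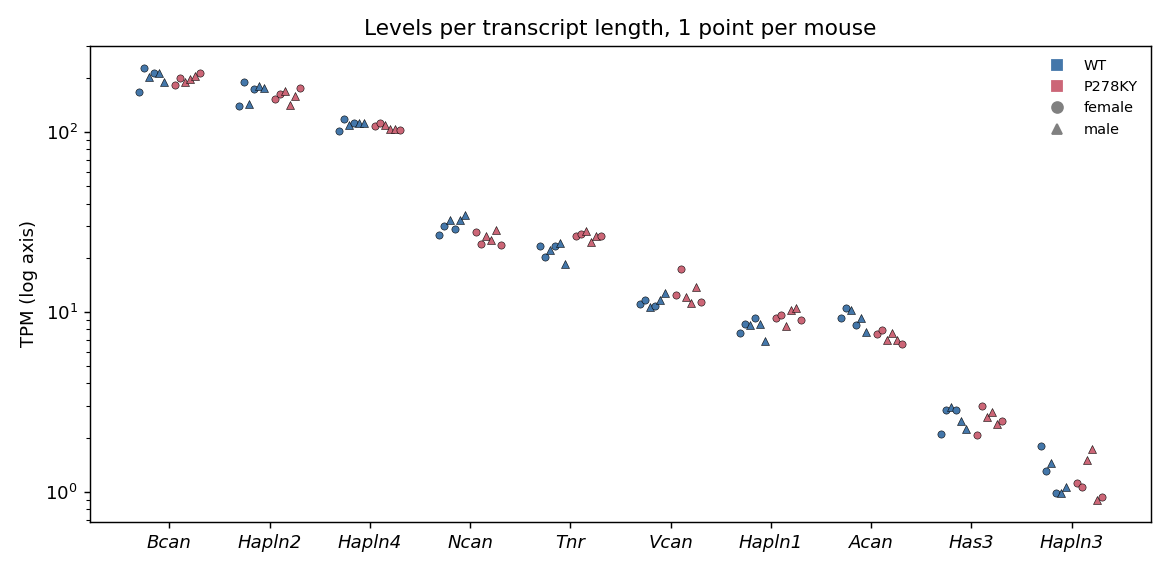
TPM (log axis) of the 10 genes in order of their mean over 12 mice, with 1 point per mouse, blue for WT, red for P278KY, circles for females and triangles for males. Bcan, Hapln2 and Hapln4 stand above 100 in mean TPM, and Acan and Hapln1 lie together near 8.

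Within each sex, 3 mice per genotype were compared with the spread shared over all groups. In males 1 member was called, Ncan (log2 difference -0.42, SE 0.079, adjusted p = 0.0243), against 1.55% of all genes. WT males lay at 124.1 to 133.3 CPM and P278KY males at 89.05 to 103.2 CPM, with no overlap. That call was lost without WT male 5 (adjusted p = 0.061), P278KY male 6 (0.115), P278KY male 7 (0.0899), WT male 11 (0.079) or WT male 12 (0.0998). In females no member was called by edgeR, against 0.573% of all genes. With an unadjusted p under 0.05 there were 3 members, beside 2223 of the 17980 tested genes. Ncan differed by -0.23 there (SE 0.079, adjusted p = 0.236), with WT females at 102.1 to 111.5 CPM and P278KY females at 84.94 to 103.9 CPM. Acan had similar estimates in both sexes, -0.40 in females (SE 0.101, adjusted p = 0.107) and -0.43 in males (SE 0.101, adjusted p = 0.0589). Its genotypes did not overlap in either sex, nor did those of Hapln4 in males (mutants lower) or Tnr in females (mutants higher). The share of all genes without overlap at 3 mice per genotype was not computed, so these separations have no background. The male result for Acan was called without WT female 2 (adjusted p = 0.0482) or WT male 12 (0.0378).

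The interaction of genotype and sex tests whether the effect differed between the sexes. For Ncan the log2 difference of the male from the female effect was -0.19 (SE 0.112, unadjusted p = 0.122). No member was called for the interaction by edgeR, nor any gene (0.0% of all genes), and at an unadjusted p under 0.05 there were 665 genes and 0 members. No other tool was run on the interaction, on sex or within a sex. Between the sexes themselves, no member was called, against 0.089% of all genes. Ncan was the only member with an unadjusted p under 0.05, beside 1609 of all genes, with males 0.15 higher on the log2 scale (SE 0.060, adjusted p = 0.489).

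Each lectican gene lies beside a link protein gene, with no protein-coding gene between them in GENCODE M21. Acan and Hapln3 on chromosome 7 run towards each other and end 2 bases apart. Ncan and Hapln4 on chromosome 8 also converge, 2222 bases apart. Vcan and Hapln1 on chromosome 13 converge across 43659 bases, and Bcan and Hapln2 on chromosome 3 share a strand, 21519 bases apart. Both genes of a pair had log2 changes of the same sign for all 4 pairs: negative for Acan and Hapln3, for Ncan and Hapln4 and for Bcan and Hapln2, and positive for Vcan and Hapln1. Bcan, Hapln2, Vcan, Hapln1 and Hapln3 each had an unadjusted p above 0.05 by edgeR, so their signs are uncertain. How often neighbouring genes share a sign over the genome was not computed. The signs of Hapln3 and Vcan turned without mice 1 to 4, and that of Hapln3 also without WT female 1. By edgeR with all 12 mice, 1 gene at most was called in each pair. Both Ncan and Hapln4 were called by DESeq2 (adjusted p = 1.31e-05 and 0.0133), by limma voom (0.00223 and 0.0137) and by edgeR without WT female 1 (0.00441 and 0.00634). The library kit keeps strand, and whether the authors' counting used it is not given in the sources used here, so the strand of reads at the ends of Acan and Hapln3 is not known. The expected counts of both genes were whole numbers in all 12 mice.

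**Figure D4:**
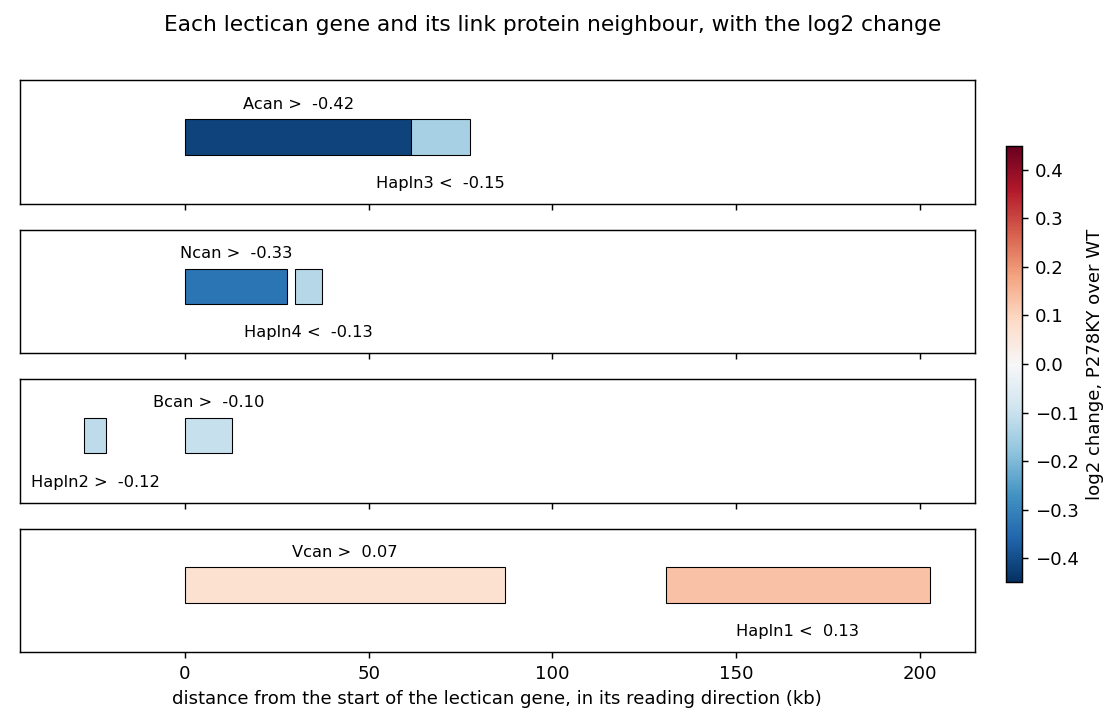
The 4 lectican genes with their link protein neighbours, drawn to scale as distance (kb) from the lectican's start in its reading direction. Arrowheads give each gene's direction relative to the lectican, and colour and number give the log2 change of P278KY over WT. Acan (-0.42) touches Hapln3 (-0.15), and Vcan and Hapln1 are the pair with positive changes, though Vcan turned negative without mice 1 to 4.

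RSEM's mean transcript length, which moves when long and short isoforms trade places, could vary for the 3 members with several transcripts in the tables. None was called by limma on its log2, against 0.0178% of the 11216 genes tested, and none had an unadjusted p under 0.05. Vcan, with 9 transcripts, averaged 7678 ± 379 bases in WT and 7523 ± 766 bases in P278KY mice (log2 difference -0.03, SE 0.071, adjusted p = 0.999). P278KY female 4 had the shortest Vcan average, 6154 bases, and the highest Vcan TPM, 17.32, at 52.58 CPM. Hapln2, with 4 transcripts, was at 1758 ± 30.1 and 1780 ± 54.4 bases. Has3, with 3 transcripts, was at 5098 ± 137 and 5192 ± 251 bases (SD, n = 6 each).

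Related matrix genes were read from the same fit in 5 lists. Among 11 other proteoglycans and tenascins 1 fell and none rose: Ptprz1, which encodes phosphacan and its receptor phosphatase form and binds tenascin-R, went from 188.2 ± 12.05 to 167.4 ± 6.777 CPM (SD, n = 6; log2 difference -0.17, SE 0.043, adjusted p = 0.0388). Among 21 genes of chondroitin sulphate synthesis 1 fell and none rose: Csgalnact1, which starts the chondroitin chain, went from 21.7 ± 1.257 to 19.26 ± 0.8302 CPM (-0.17, SE 0.041, adjusted p = 0.0275). Among 10 receptors and binding partners of nets 1 rose and none fell: Nptxr, the neuronal pentraxin receptor, went from 86.24 ± 4.982 to 99.88 ± 5.799 CPM (0.21, SE 0.044, adjusted p = 0.0146). Each is a single call by edgeR, beside 5.32% of genes called overall. At an unadjusted p under 0.05 the 3 lists held 2, 5 and 5 genes. DESeq2 called 2, 1 and 2 of them and limma voom 2, 1 and 1. Log2 changes were negative for 9, 15 and 2 genes and positive for 2, 6 and 8. The list medians of the log2 change were -0.05, -0.06 and 0.06.

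The call of Ptprz1 was lost in 9 of the 12 fits with 1 mouse left out: without WT female 2 (adjusted p = 0.0714), P278KY female 3 (0.0819), P278KY female 4 (0.0935), WT male 5 (0.0765), P278KY male 6 (0.0711), P278KY male 7 (0.0759), P278KY male 8 (0.0527), P278KY female 9 (0.0604) or WT female 10 (0.0829). That of Csgalnact1 was lost in 7: without P278KY female 3 (0.0565), P278KY female 4 (0.0623), P278KY male 6 (0.0721), P278KY male 8 (0.062), WT female 10 (0.0606), WT male 11 (0.0647) or WT male 12 (0.0548). Neither was called on log2(TPM + 1) values, where the changes were -0.09 for Ptprz1 (adjusted p = 0.29) and -0.07 for Csgalnact1 (0.347). Without mice 1 to 4 their adjusted p was 0.197 and 0.0983, and without mice 7, 10 and 11 it was 0.139 and 0.13. Csgalnact1 was also not called with a term for mice 9 to 12 (0.0699) or with mice 1 to 8 alone (0.376). Nptxr was called in all 12, its adjusted p reaching 0.0444, and not without mice 1 to 4 (0.0615), without mice 7, 10 and 11 (0.126) or with mice 1 to 8 alone (0.264).

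No gene was called among 11 of hyaluronan synthesis, turnover and receptors by edgeR, DESeq2 or limma voom, and 1 had an unadjusted p under 0.05. That gene, named after its values were seen, was Has2, another hyaluronan synthase (log2 difference -0.52, SE 0.190, adjusted p = 0.14). None of 14 matrix proteases and inhibitors was called by edgeR, where 4 had an unadjusted p under 0.05, and 1 was called by DESeq2 and 1 by limma voom. Their medians were 0.01 and -0.03.

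Markers of cells that carry or surround nets were read from the same fit. Of 11 motor neuron markers 7 fell and none rose, with a median log2 change of -0.36. Their summed level ran from 1407 to 1994 CPM in WT and from 1165 to 1256 CPM in P278KY mice, with no overlap. Most of that sum came from Nefh (913.8 to 1396 CPM in WT and 746.0 to 835.9 CPM in P278KY mice). None of the markers was at 0 in any mouse. EdgeR did not call Mmp9 (log2 change -0.33, adjusted p = 0.136), Mnx1 (-0.25, 0.414), Isl1 (-0.06, 0.903) or Esrrg (0.02, 0.801). Chodl, of fast motor neurons, fell by 2.24 on the log2 scale (SE 0.140), Spp1, the gene of osteopontin, by 0.72 (SE 0.043), Nefh, the heavy neurofilament gene, by 0.67 (SE 0.085) and Ret, a receptor subunit for GDNF ligands, by 0.21 (SE 0.030). All 4 passed edgeR's test with an adjusted p of 2.47e-06 to 0.00176, and the calls of Nefh and Ret were lost with mice 1 to 8 alone (adjusted p = 0.105 and 0.154). Ret was also not called on log2(TPM + 1) values, where its change was -0.12 (adjusted p = 0.0622). The part of motor neurons in the fall of Acan and Ncan was not tested. Of 8 markers of fast-spiking and inhibitory neurons, whose cells also carry nets, edgeR called none (2 at an unadjusted p under 0.05). DESeq2 called 1 of them and limma voom 0, and 5 log2 changes were positive and 3 negative. Their summed level was 2097 to 2240 CPM over WT mice and 2058 to 2183 CPM over mutants. That sum moves with Pvalb, at 58.92 to 408.8 CPM in WT and 57.22 to 151.1 CPM in P278KY mice (log2 change -0.57, SE 0.406, adjusted p = 0.496). Kcnc1 was at 291.3 to 325.0 CPM in WT and 330.1 to 351.6 CPM in P278KY mice (0.10, SE 0.032, adjusted p = 0.0824).

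Among glia, edgeR called 1 of 9 astrocyte markers, which rose, the glutamate transporter gene Slc1a3 (log2 change 0.37, SE 0.033). Of the 9, 3 had an unadjusted p under 0.05, DESeq2 called 3 and limma voom 1. The log2 changes of 7 astrocyte markers were positive and of 2 negative. Their summed level was 6554 to 7243 CPM over WT mice and 7109 to 8173 CPM over mutants. None of 6 markers of oligodendrocyte precursors or 10 of oligodendrocytes was called by edgeR, DESeq2 or limma voom, with 1 and 2 at an unadjusted p under 0.05. Summed oligodendrocyte markers were at 26380 to 35800 CPM over WT mice and 24930 to 30830 CPM over mutants. None of 6 microglia markers was called by edgeR, DESeq2 or limma voom, and none had an unadjusted p under 0.05. Of 6 Schwann cell markers edgeR called 3 lower (Pmp2, Gldn and Pmp22, of peripheral myelin and its nodes). All 6 had negative log2 changes and 5 an unadjusted p under 0.05, and DESeq2 called 5 and limma voom 3. Their summed level was 1476 to 2565 CPM over WT mice and 431.2 to 1535 CPM over mutants. Pmp22 failed the test in 8 of 12 fits that each left a mouse out, its adjusted p reaching 0.0883 without P278KY male 6. The part of glia and Schwann cells in the results for Acan and Ncan was not tested.

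Aggrecan is also the main proteoglycan of cartilage, which lies next to the cord. None of 9 tested cartilage markers was called by edgeR, 1 had an unadjusted p under 0.05, DESeq2 called 1 and limma voom called 0. The median log2 change was -0.18, and 6 of the 9 were negative. Their summed level was 121.7 to 164.3 CPM over WT mice and 128.9 to 175.1 CPM over mutants, most of it from Col11a2 (90.28 to 131.8 and 101.5 to 142.5 CPM, log2 difference 0.01). Col2a1, the gene of cartilage collagen, was at 5.306 to 19.78 CPM over WT mice and 4.276 to 7.929 CPM over mutants (log2 difference -0.83, SE 0.296, adjusted p = 0.144). Matn1 was at 0.225 to 1.616 CPM over all mice, and Epyc, which was too low to test, at 0 to 0.222 CPM. The part of cartilage RNA in the Acan result was not tested. WT female 1, whose removal brings calls of Bcan and Hapln4, stood apart in other markers: its summed fibroblast level was 1198 CPM against 402.3 to 725.5 CPM in the other 11 mice. Its endothelial sum of 326.7 CPM and its skeletal muscle sum of 8095 CPM were the highest of the 12. Its astrocyte sum of 6554 CPM was the lowest of the 12, and its motor neuron sum of 1407 CPM the lowest of the WT mice. The part of these cells in those calls was not tested. Of the remaining lists, 1 of 7 fibroblast markers fell (Lum) and 1 of 6 ganglion neuron markers rose (P2rx3). Lum failed in 8 of the 12 fits with a mouse left out (up to 0.0974, without P278KY male 6). P2rx3 was not called without mice 1 to 4 (0.0736) or with mice 1 to 8 alone (0.0685). It was called without mice 7, 10 and 11, the libraries with ganglion RNA (log2 change 1.99, adjusted p = 0.000946). Of the 6 ganglion neuron markers, 5 had negative log2 changes. Of 6 endothelial, 7 pericyte and smooth muscle and 8 skeletal muscle markers edgeR called none, with 2, 0 and 0 at an unadjusted p under 0.05, where DESeq2 called 2, 0 and 0 and limma voom called 0 in each.

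To see which genes vary most like the members from mouse to mouse, log2 CPM values were centred on each of the 4 groups and correlated over the 12 mice, among 15498 genes with a mean of at least 1 CPM. For Acan the most alike were Nr4a3, an activity-induced nuclear receptor gene (Pearson r 0.97), Cyp2e1 (0.96) and Patl1 (0.94). None of these was called between genotypes, and their log2 changes were positive where that of Acan was negative: 0.46 for Nr4a3 (SE 0.136, adjusted p = 0.0697), 0.70 for Cyp2e1 and 0.05 for Patl1. For Ncan they were Prdx2, Tbpl1 and D15Ertd621e, at 0.924 to 0.925, with log2 changes of -0.09, 0.08 and 0.05 that were not called. For Hapln4 they were Kcnab1 (0.96), a potassium channel subunit gene that itself fell (log2 change -0.25, SE 0.043, adjusted p = 0.00494), Rimkla (0.95), which also fell (-0.30, SE 0.058, adjusted p = 0.0108), and Mmp17 (0.94), which was not called (-0.13, adjusted p = 0.102). For Tnr they were Nkd1 (0.97), 4930430F08Rik (0.94) and Gm15663 (0.94), whose log2 changes of -0.12, -0.04 and -0.25 were not called. Spearman's rho of these 12 pairs was 0.78 to 0.96. The values are the highest of a search over many genes in few mice that share group means and library scaling, so they are a description with no p. Among the members themselves, r was -0.03 for Acan with Ncan and 0.07 for Acan with Tnr, and the closest pair was Bcan with Hapln2 (0.76). Even so, Hapln2 ranked 537 among the genes most like Bcan, and Bcan 450 among those most like Hapln2. For the neighbours Ncan and Hapln4 r was 0.54, and for Vcan and Hapln1 it was -0.13.

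**Figure D5:**
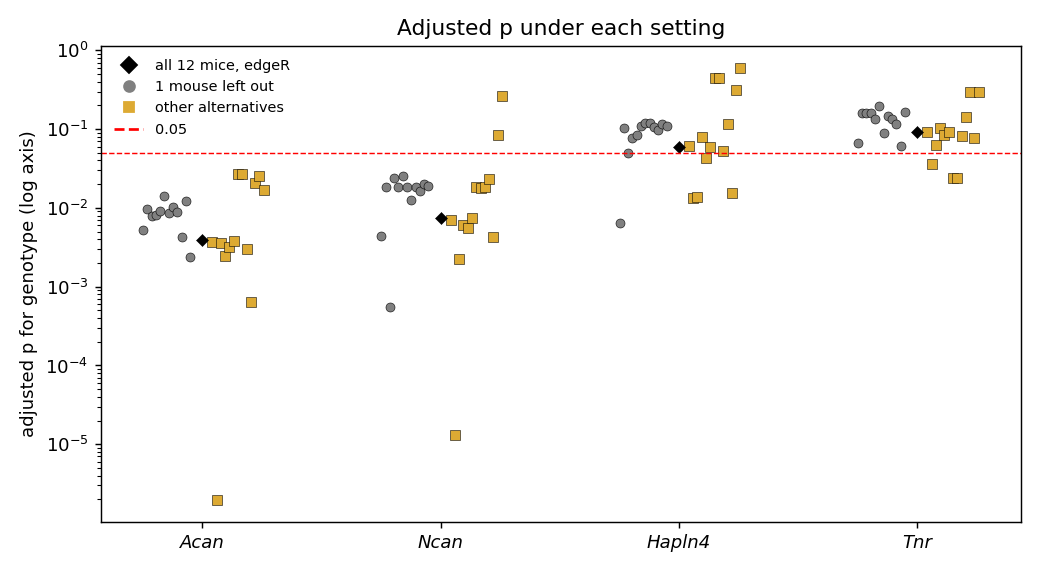
Adjusted p for genotype (log axis) of Acan, Ncan, Hapln4 and Tnr with all 12 mice (black), with 1 mouse left out (grey) and under the other alternatives (yellow), with the threshold of 0.05 as a dashed line. Acan stays under the line in every setting, Ncan in all but 2, and Hapln4 and Tnr lie on both sides of it.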

How the data were processed

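Polyadenylated RNA of whole spinal cord from 12 mice was sequenced as stranded libraries with 75 base reads from both ends, per the labels' protocols. Per the submitters' processing notes, Bowtie2 2.2.0 and RSEM 1.2.12 were used. Neither genome build nor annotation is given in the sources used here. Per the file headers, the authors made the expected counts with RSEM, which shares a read that fits several genes among them. Per the file headers, the deposited TPM is scaled by transcript length and library, and the deposited length is averaged over isoforms. The deposited FPKM values were not used, per the file headers scaled by length and library total. Positions are from GENCODE M21 (GRCm38), matched by gene identifier, and some transcript lengths differ from M21, so it is not the authors' release.

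Expected counts were rounded and filtered with filterByExpr of edgeR over the 4 groups, scaled by TMM and tested with edgeR's quasi-likelihood F test (robust; additive model of sex and genotype; 4 group means for effects within a sex and the interaction). P values were adjusted by Benjamini-Hochberg over all tested genes at a threshold of 0.05. SE is the log2 change over the square root of F. CPM uses TMM-scaled totals. Transcript length was tested with limma on log2 values computed from the deposited lengths. Versions were edgeR 4.0.16 and limma 3.58.1 under R 4.3.3, with DESeq2 1.42.0 as an alternative, and the code was tested on simulated data. Up to 4 called genes per list were named by P value, with all 10 members, and for 4 members the 3 genes of most alike pattern. The members and lists were chosen with earlier results of these data known. Alternatives were other size factors, tests, filters, units and terms, and mice left out. Samples are separate mice.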

Additional observations from a re-analysis of the deposited data

Results flagged for a closer look

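Of 20 groups of 6 mice (each member in each genotype), 1 held a mouse far from the rest by Dixon's test, where chance gives about 1 in 20. Tnr was at 52.46 CPM in P278KY male 7, below the other 5 mutants at 57.84 to 60.98 CPM. That library is one of those with ganglion RNA. Without mice 7, 10 and 11 the log2 difference of Tnr was 0.28, with an adjusted p of 0.0769 by edgeR.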

How the results depend on the processing

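Acan was called lower in all 12 fits with 1 mouse left out and all 13 other alternatives, with a log2 change of -0.48 to -0.30 and an adjusted p of up to 0.0273. Genes called for genotype numbered 956 with all 12 mice, 1627 by DESeq2, 1467 by limma voom, 1606 on log2(TPM + 1) and 1622 on log2(TPM + 0.1) values. They numbered 542 to 1385 with 1 mouse left out (1385 without WT female 1, 542, 628, 603 and 623 without P278KY males 6 and 7, P278KY female 4 and WT male 11), 557 without mice 1 to 4, 253 without mice 7, 10 and 11 and 84 in mice 1 to 8 alone, a choice made after the data were seen. On log2(TPM + 1) values 84.6% of the called genes were higher, against 44.5% on counts, and the median over all genes was 0.06. The cause was not tested. Members called numbered 2 with all mice, 4 by DESeq2 (with Hapln4 and Tnr), 2 to 4 with 1 mouse left out (4 without WT female 1, with Bcan and Hapln4), and 1 (Acan) without mice 7, 10 and 11 and in mice 1 to 8 alone, which have fewer samples. In males they numbered 0 to 2 with 1 mouse left out. Signs turned for Vcan without mice 1 to 4 (-0.01305) and for Hapln3, which was -0.2661 to 0.001279 with 1 mouse left out and 0.06914 without mice 1 to 4. With a median in place of a mean, no TPM level moved by more than its SD. Hapln3 rests on the fewest counts. Without the filter Hapln3 kept its sign, and under the filter of at least 1 CPM in 6 libraries it was not tested. No paired analysis was possible because mouse numbers are not shared between groups.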
